A study of Mus musculus with 4 samples.

Results

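The genes described here encode integral membrane proteins of the red cell that carry blood group antigens or belong to the same complexes. They are Slc4a1 (band 3), Gypc (glycophorin C), Rhag and Rhd (the Rh complex), Kel and Xk (Kell and Kx), Ermap, Aqp1 (aquaporin 1) and Icam4. They were chosen by name from the gene symbols of the expression table, which gave 9 rows of 47935 loci. One of the 9 rows, that of Xk, is shared with a second symbol. All samples came from MEL cells, a mouse erythroleukemia line arrested at an early erythroid stage. There were 2 groups with 2 samples each: uninduced cells in the maintenance medium, and DMSO-induced cells in the same medium with 1.5% dimethyl sulfoxide, an agent that starts erythroid-like differentiation of this line. How long the cells were exposed, and whether replicates were separate cultures, is not stated in the sources used here. Hence the p-values describe the spread among these 4 samples alone, and that spread may be technical. The line is a transformed one, and it is a model of maturation only as far as DMSO drives it.

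The membrane of the red cell is held to a spectrin skeleton at a pair of anchoring sites. Band 3, the chloride-bicarbonate exchanger, binds the skeleton through ankyrin and protein 4.2, and glycophorin C binds it through protein 4.1 and p55, the product of Mpp1. The Rh proteins sit with band 3 in the ankyrin-linked complex, RhAG is a glycoprotein needed for the Rh antigen protein to reach the surface, and Kell, an endopeptidase, is disulfide-bonded to Kx, the product of Xk. Mice have a single Rh antigen gene, named Rhd in the table.

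Expression was measured by RNA-seq of ribosomal RNA-depleted total RNA and deposited as FPKM, that is fragments per kilobase of transcript scaled to each library. Depth was not given. The smallest steps between low values of loci of 380 to 520 bases with 1 exon put the relative depths at 0.92 and 1.0 for uninduced replicates 1 and 2 and at 0.67 and 0.74 for induced replicates 1 and 2. Loci of 800 to 1200 bases gave 0.93, 1.0, 0.66 and 0.64, so the order of the induced replicates is not resolved. The erythroid markers Gata1, Klf1, Tal1, Epor, Tfrc, Alas2, Hba-a1 and Hbb-bs, 8 of 8, reached 1 FPKM. Markers of granulocytes and mast cells, lymphoid cells, fibroblasts and endothelium did not reach 1 FPKM in any sample, and of 5 macrophage and monocyte markers 1 did. This was Cd68, at 7.09 and 4.68 FPKM in uninduced and 1.72 and 0.67 FPKM in induced samples (log2 fold change -1.67 ± 0.34, limma adjusted p = 0.0273). Of 5 megakaryocyte markers 4 did, with sums of 248 and 404 FPKM in uninduced and 198 and 281 FPKM in induced samples, and 0 of the 4 were called in limma, 3 of them with an unadjusted p under 0.05. Pf4 measured 198.29 and 329.49 FPKM before induction and 105.78 and 138.07 FPKM after it (adjusted p = 0.0631). The Itga2b locus, whose value is shared with Gpatch8, was at 46.79 and 69.48 FPKM and at 85.94 and 136.25 FPKM (adjusted p = 0.0949). The part of these markers in the results was not tested. In bulk samples, fewer cells of a type and less RNA per cell cannot be told apart.

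To show the DNA that these transcripts start from, the 120 bases just upstream of the more distal of the RefSeq and GENCODE M21 starts are printed for 5 genes that differ in their response. The RefSeq promoter table (GRCm38.p6) held entries for 7 of the 9 genes. Capitals mark the GATA motif, AGATAA or TGATAA on either strand, the sequence bound by the erythroid factor GATA1. The windows are chr4:134864416-134864535 for Rhd (plus strand), chr6:41704340-41704459 for Kel (minus strand), chr17:40811006-40811125 for Rhag (plus strand), chr4:119190012-119190131 for Ermap (minus strand) and chr6:55336179-55336298 for Aqp1 (plus strand), and each is written 5′ to 3′ on the strand of its gene.
Rhd: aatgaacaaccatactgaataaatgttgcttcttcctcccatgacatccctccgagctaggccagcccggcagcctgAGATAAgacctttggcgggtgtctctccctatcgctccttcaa
Kel: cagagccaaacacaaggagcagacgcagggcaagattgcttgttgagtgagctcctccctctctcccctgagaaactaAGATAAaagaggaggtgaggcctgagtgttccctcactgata
Rhag: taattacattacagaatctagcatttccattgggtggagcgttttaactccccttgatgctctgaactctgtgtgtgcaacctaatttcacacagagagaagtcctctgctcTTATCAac
Ermap: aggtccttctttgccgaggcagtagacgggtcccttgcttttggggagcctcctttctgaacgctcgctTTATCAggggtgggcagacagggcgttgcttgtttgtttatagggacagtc
Aqp1: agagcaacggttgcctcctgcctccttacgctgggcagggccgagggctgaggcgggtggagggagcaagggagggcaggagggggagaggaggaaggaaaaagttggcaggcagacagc

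Over the full RefSeq windows of 300 bases (250 before the start and 50 after it), Rhd, Rhag, Ermap and Icam4 held 1 GATA match each and Kel held 2, while Xk and Aqp1 held 0. Of all 32851 RefSeq promoters of that length, 18.6% held at least 1. Counted back from the RefSeq start, the matches printed in capitals began 43 bases upstream in Rhd, 56 in Kel, 31 in Rhag and 67 in Ermap. The second match in Kel began 19 bases upstream and that of Icam4 43 bases upstream. The second Kel match reaches past the more distal annotated start, which is that of GENCODE. The Icam4 match lies wholly downstream of the GENCODE start of its gene. Neither is printed. A CACC-type motif, CCNCNCCC on either strand, which is the kind of site that Krüppel-like factors bind, was in the windows of Rhd, Xk, Aqp1 and Icam4 and in 49.5% of all promoters. In Xk most of the 13 matches overlap each other in a run of G. A match describes the letters only and is not a measured binding site, and genes with a GATA match here included both risen ones (Rhd, Kel and Rhag) and 2 that did not pass the test (Ermap and Icam4).

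Induction raised 6 of the 8 genes that could be tested, and none passed the test in the other direction. Slc4a1 rose most, and Rhd, Kel and Gypc rose by 4.91- to 5.45-fold on the ratio of mean FPKM. Rhag and the locus that Xk shares with another symbol rose by 2.09- and 2.36-fold. Ermap and Icam4 did not pass, and Aqp1 was at or near 0 in every sample. Over all 12890 loci tested, 11.5% passed in the upward direction, 14.7% in the downward direction and 26.2% in either. The test was limma on log2(FPKM + 1) with Benjamini-Hochberg adjustment over all loci at 0.05. Slc4a1 passed the filter on low values, 1 FPKM in at least 2 samples, only through its induced values, so the share of the tested genes that rose is a description and not a sign of enrichment. At an unadjusted p under 0.05 in limma, 7 of the 8 were higher and 0 lower. Of all 12890 loci, 5556 were under it in either direction, 2662 of them higher. With 1 sample left out and the same loci tested, limma called 0 of the 8 without uninduced replicate 1, 0 without uninduced replicate 2, 4 without induced replicate 1 and 1 without induced replicate 2. All 8 estimates stayed above 0 in each case, where 6770, 6332, 6718 and 6441 of all 12890 loci had an estimate above 0. In each case limma also called fewer of all loci than with all samples. When the filter was applied again to the 3 samples left, an alternative added after the data were seen, the counts were 6 of 8, 5 of 8, 3 of 7 and 1 of 7. Slc4a1 was the gene that the repeated filter removed when either induced replicate was left out. With no filter, 26323 loci entered the fit and limma called 0 of the 9 genes, 7 of them with an unadjusted p under 0.05. The adjusted p of the 6 genes called in the main fit then ran from 0.0568 to 0.0777.

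**Figure D1:**
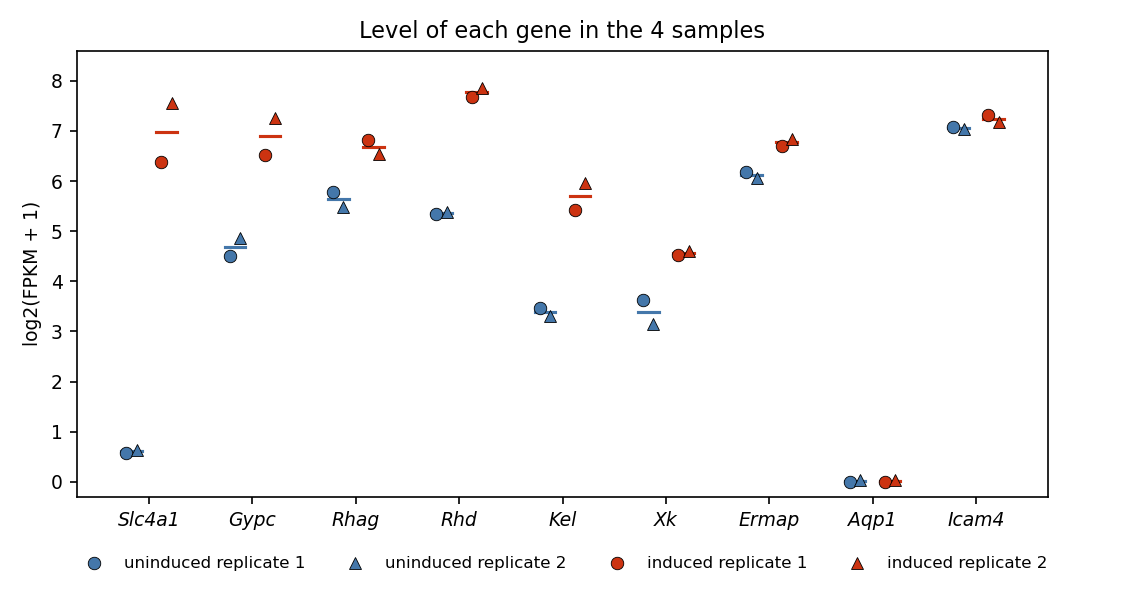
Level of each of the 9 genes as log2(FPKM + 1), uninduced samples in blue and induced samples in red, with circles for replicate 1, triangles for replicate 2 and a bar at the mean of 2. Induced points lie above uninduced points for 8 genes, by the widest gap for Slc4a1 (0.49 and 0.56 against 82.82 and 186.33 FPKM), while Aqp1 lies at the floor in all 4 samples.

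Slc4a1 (chromosome 11, 102348824 to 102366203, GRCm38, minus strand, ENSMUSG00000006574) encodes band 3, the most abundant integral protein of the red cell membrane. It measured 0.49 and 0.56 FPKM in uninduced and 82.82 and 186.33 FPKM in induced replicates 1 and 2. The groups were far apart, and the induced replicates differed from each other by more than 2-fold. The log2 fold change was 6.36 ± 0.41 (SE; 95% interval 5.31 to 7.41, limma adjusted p = 0.0059), which ranked 3 among the 12890 loci tested. With a pseudocount of 0.1 in place of 1 it was 7.64, since the value of 1 is larger than the uninduced level itself. For the longest coding transcript, of 4545 bases and 20 exons, and the step of loci of 800 to 1200 bases, the uninduced values correspond to about 47 and 57 fragments. Without uninduced replicate 1 or 2 the gene did not pass (adjusted p = 0.0652 and 0.0831).

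Gypc (chromosome 18, 32528322 to 32560034, minus strand, ENSMUSG00000090523) encodes glycophorin C, which carries the Gerbich antigens. It went from 21.6 and 28.1 FPKM in uninduced to 91.35 and 152.54 FPKM in induced samples. The log2 fold change was 2.22 ± 0.31 (limma adjusted p = 0.0154), and as with Slc4a1 induced replicate 2 was the higher of the pair. Relative to Gypc, Slc4a1 stood at 0.0227 and 0.0199 per FPKM of Gypc in uninduced samples and at 0.907 and 1.22 in induced ones. The 2 transcripts, which differed widely before induction, were thus at like levels per length after it.

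Transcripts of both partners of the Rh complex rose. Rhag (chromosome 17, 40811126 to 40840754, plus strand, ENSMUSG00000023926), the ammonia channel-like glycoprotein that the complex needs to assemble, went from 54.18 and 43.83 to 112.67 and 92.07 FPKM. Its log2 fold change was 1.05 ± 0.22 (limma adjusted p = 0.0293), and replicate 1 was the higher sample in both groups. Rhd (chromosome 4, 134864536 to 134896172, plus strand, ENSMUSG00000028825), the Rh antigen protein, went from 39.85 and 40.66 to 203.05 and 231.95 FPKM. Its log2 fold change was 2.40 ± 0.19 (limma adjusted p = 0.00785). The replicates of Rhd lay close together in both groups, and it had the highest mean of the 9 genes after induction, 218 ± 20.4 FPKM (SD, n = 2). The ratio of Rhd to Rhag was 0.736 and 0.928 in uninduced and 1.8 and 2.52 in induced samples. Per length, Rhag was the more abundant of the 2 in both uninduced samples and Rhd in both induced ones. The difference in mean log2 ratio, taken on FPKM + 1, was 1.35 (exact permutation test, two-sided, p = 0.333, which is the smallest that 2 samples against 2 allow).

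The Kell gene and the locus of its partner both rose. Kel (chromosome 6, 41686330 to 41704339, minus strand, ENSMUSG00000029866), the endopeptidase that carries the Kell antigens, went from 10.07 and 8.9 to 42 and 61.36 FPKM. Its log2 fold change was 2.31 ± 0.25 (limma adjusted p = 0.0128), with the higher value again in induced replicate 2. The locus of Xk (gene at chromosome X, 9272756 to 9313250, plus strand, ENSMUSG00000015342) went from 11.31 and 7.91 to 21.92 and 23.35 FPKM. That locus change was 1.17 ± 0.24 on the log2 scale (limma adjusted p = 0.0274). Its row also holds 1700012L04Rik, which GENCODE M21 names H2al1m, a single-exon gene of 535 bases at 9283764 to 9284298 on the same strand, whose exon overlaps none of the 3 exons of Xk. The table gives 1 value for both genes, so the part that belongs to Xk is uncertain. Kel over the Xk locus was 0.89 and 1.13 in uninduced and 1.92 and 2.63 in induced samples. The difference in mean log2 ratio, taken on FPKM + 1, was 1.13 (two-sided exact permutation p = 0.333). In all 5 pairs were compared, chosen after the values were seen, each with the same p before and after adjustment over the 5.

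**Figure D2:**
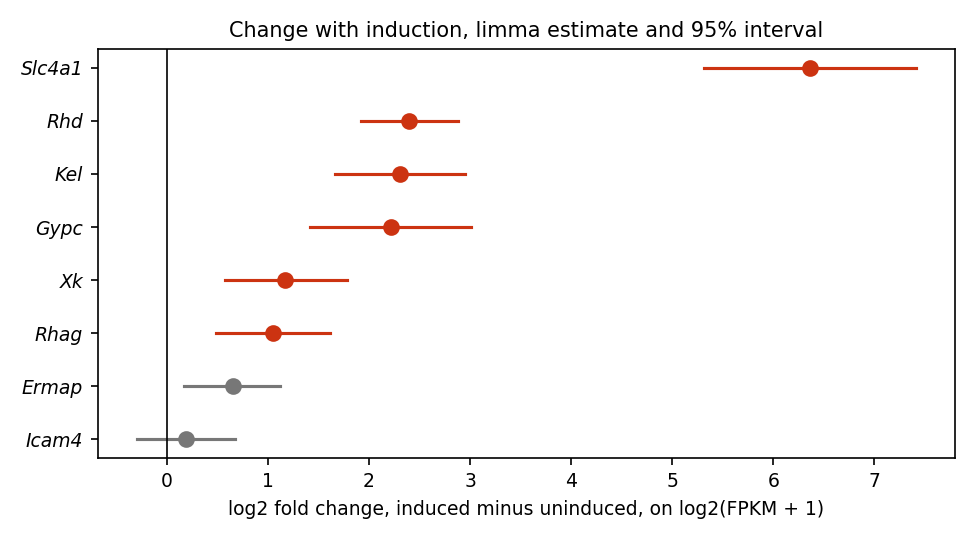
Log2 fold change of the 8 tested genes on log2(FPKM + 1), induced minus uninduced, with the 95% interval from limma; red marks an adjusted p under 0.05 and gray the others. The interval of Slc4a1 (5.31 to 7.41) lies apart from the others, and that of Icam4 (-0.30 to 0.67) spans 0.

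Ermap and Icam4 were already high before induction. Ermap (chromosome 4, 119175457 to 119190011, minus strand, ENSMUSG00000028644), an erythroid member of the butyrophilin-like family that carries the Scianna antigens, measured 71.93 and 65.86 FPKM in uninduced and 103.63 and 113.03 FPKM in induced samples. The groups did not overlap, but the log2 difference of 0.65 ± 0.19 did not pass (95% interval 0.17 to 1.12, limma adjusted p = 0.0596). Under quantile scaling it was 0.92 and passed (adjusted p = 0.0237). Icam4 (chromosome 9, 21029373 to 21030595, plus strand, ENSMUSG00000001014), the Landsteiner-Wiener adhesion protein, measured 134.68 and 129.77 FPKM in uninduced and 158.13 and 143.57 FPKM in induced samples. Its log2 difference was 0.19 ± 0.19 with a 95% interval of -0.30 to 0.67 (limma adjusted p = 0.483). A change of 2-fold, 1 on the log2 scale, lies outside that interval, while only changes between its 2 bounds lie inside it. Under quantile scaling the estimate was larger, 0.49 ± 0.19 (limma adjusted p = 0.108). Both induced values lay above both uninduced values for each of the 8 tested genes, and for 36.1% of all loci tested. Both lay below for 0 of the 8 genes and for 34.7% of all loci.

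Aqp1 (chromosome 6, 55336432 to 55348555, plus strand, ENSMUSG00000004655), the water channel of the red cell that carries the Colton antigens, was listed at 0 and 0.03 FPKM in uninduced and at 0 and 0.02 FPKM in induced replicates 1 and 2. These values correspond to about 0 to 1.8 fragments on its transcript of 2627 bases. It did not pass the filter and was not tested, and no change was detectable at this depth. Of the 8 other aquaporin genes in the list of relatives, Aqp9 was the most abundant, at 33.68 and 39.1 FPKM in uninduced and 8.32 and 11.51 FPKM in induced samples.

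The order of levels differed between the groups. In uninduced samples it ran Icam4, Ermap, Rhag, Rhd, Gypc, Xk, Kel, Slc4a1 and Aqp1 by mean FPKM, and of the neighbours in that order Xk and Kel overlapped. In induced samples it ran Rhd, Icam4, Slc4a1, Gypc, Ermap, Rhag, Kel, Xk and Aqp1. There the neighbouring values from Icam4 down to Rhag overlapped, with means from 151 to 102 FPKM, so the order within that group is not resolved by 2 samples. The 9 genes together summed to 344 and 326 FPKM in uninduced and 816 and 1004 FPKM in induced samples, which was 0.0326% and 0.0246% of the table before induction and 0.0654% and 0.0912% after it. Icam4 made up 39.1% and 39.9% of that sum in uninduced and 19.4% and 14.3% in induced samples, although its own level did not pass the test. Slc4a1 went from 0.142% and 0.172% to 10.2% and 18.6% of the sum, and Rhd from 11.6% and 12.5% to 24.9% and 23.1%.

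**Figure D3:**
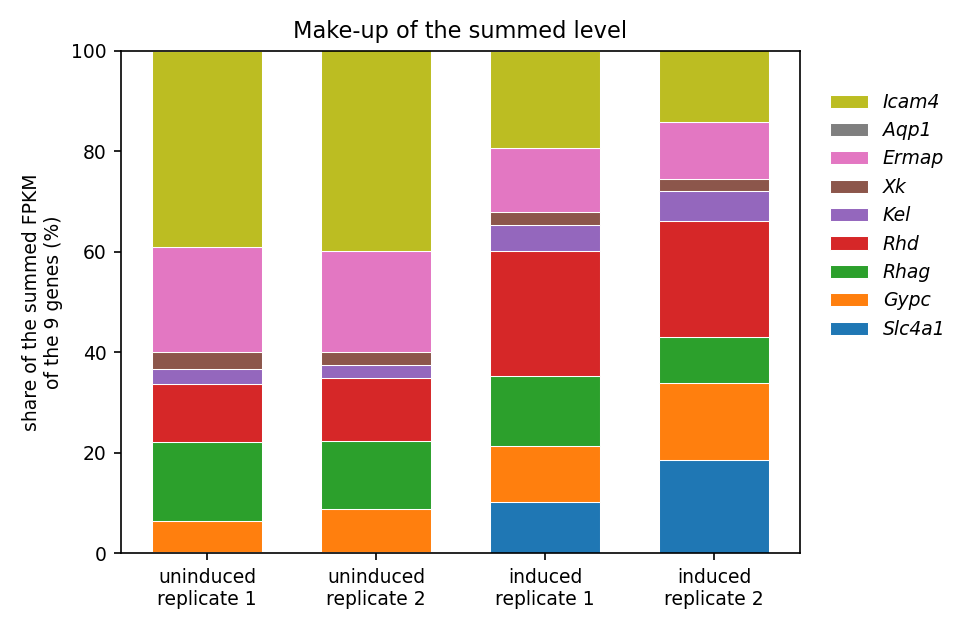
Share of each gene in the summed FPKM of the 9 genes, in percent, for each of the 4 samples. Icam4 takes 39.1% and 39.9% of the sum in uninduced samples and 19.4% and 14.3% in induced samples, and Slc4a1, barely visible in uninduced samples, reaches 10.2% and 18.6%.

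Of the genes for skeleton proteins to which band 3 and glycophorin C are tied, most of those tested rose as well. Of 14 listed genes, 1 (Add1) shares its locus with another symbol, and of the 13 tested 8 rose, 1 fell and 4 were not called, with 11.5% and 14.7% of all loci called in these directions. The median log2 fold change of the 13 was 1.40, and that of all loci tested was 0.03. Epb42, the protein 4.2 that joins band 3 to ankyrin and is listed under its older symbol Epb4.2, rose most, from 1.9 and 1.97 to 32.82 and 27.29 FPKM (log2 fold change 3.40 ± 0.21, limma adjusted p = 0.00503). Other risen genes were Ank1, Sptb, Tmod1, Mpp1, Dmtn and Epb41, from 1.10 (Epb41) to 2.62 (Tmod1) on the log2 scale, named after their values were seen. The 1 that fell was Add3, an adducin, from 26.17 and 41.27 to 16.52 and 13.78 FPKM (-1.07 ± 0.28, adjusted p = 0.0472). It did not pass under quantile scaling, where its adjusted p was 0.0598, nor under scaling to sums without the most abundant loci (0.0546) or with a pseudocount of 0.1 (0.052). Without uninduced replicate 1, uninduced replicate 2, induced replicate 1 and induced replicate 2 in turn, 9, 9, 9 and 9 of the 13 estimates lay above 0. Over all 12890 loci 6770, 6332, 6718 and 6441 did. Each time limma called fewer of the 13, and fewer of all loci, than with all samples. Actb, the most abundant of the list, measured 1837.59 and 1783.41 FPKM in uninduced and 1340.89 and 1349.07 FPKM in induced samples and did not pass (adjusted p = 0.255).

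A further list held other surface antigen genes, most of them coding for proteins that carry blood group antigens. Of 24 listed, 4 share a locus, 2 were under the filter, and of the 18 tested 4 rose, 3 fell and 11 were not called, beside 11.5% higher and 14.7% lower over all loci. Their median log2 fold change was 0.35. Abcg2 (the Junior antigen transporter), Art4 (Dombrock) and Cd47, a partner of the Rh complex, rose, and Emp3 and Slc29a1 fell, all 5 named after their values were seen. Abcg2 went from 20.17 and 17.11 to 129.89 and 135.15 FPKM (2.77 ± 0.19, limma adjusted p = 0.00615), and Cd47 from 42.26 and 58.11 to 168.05 and 217.1 FPKM (1.92 ± 0.26, adjusted p = 0.0144). Art4 passed the filter only through its induced values. Cd44, the Indian antigen and a receptor for hyaluronan, fell from 31.97 and 18.77 to 5.44 and 3.11 FPKM (-2.31 ± 0.36, adjusted p = 0.0183). Bsg, basigin, the most abundant of the list, measured 345.24 and 288.1 FPKM in uninduced and 534.35 and 576.81 FPKM in induced samples and did not pass (0.81 ± 0.22, adjusted p = 0.0528). Without the same 4 samples in turn, 13, 14, 14 and 13 of the 18 estimates lay above 0, and 6770, 6332, 6718 and 6441 of all 12890. Each time limma called fewer of the 18, and fewer of all loci, than with all samples.

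A list of other red cell membrane transporters and stomatin gave a median near that of all loci. Of 18 listed, 1 (Piezo1) was matched to no locus and 4 share a locus, and of the 13 tested 3 rose, 2 fell and 8 were not called. Over all loci 11.5% rose and 14.7% fell. The median log2 fold change of the 13 was -0.07. Stom, stomatin, rose most, from 18.93 and 21.85 to 77.71 and 115.17 FPKM (2.16 ± 0.26, limma adjusted p = 0.0128). Slc43a1 and Clcn3 also rose and the lactate transporter Slc16a1 fell, named after their values were seen. Slc16a1 was not called under quantile scaling (adjusted p = 0.0781), scaling to sums without the most abundant loci (0.0851) or with a pseudocount of 0.1 (0.051). Slc1a5, a glutamine transporter, fell from 56.34 and 72.33 to 21.62 and 12.95 FPKM (-1.87 ± 0.30, adjusted p = 0.0189). Without the same samples in turn, 8, 5, 5 and 6 of the 13 estimates lay above 0, and 6770, 6332, 6718 and 6441 of all 12890. Each time limma called fewer of the 13, and fewer of all loci, than with all samples.

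**Figure D4:**
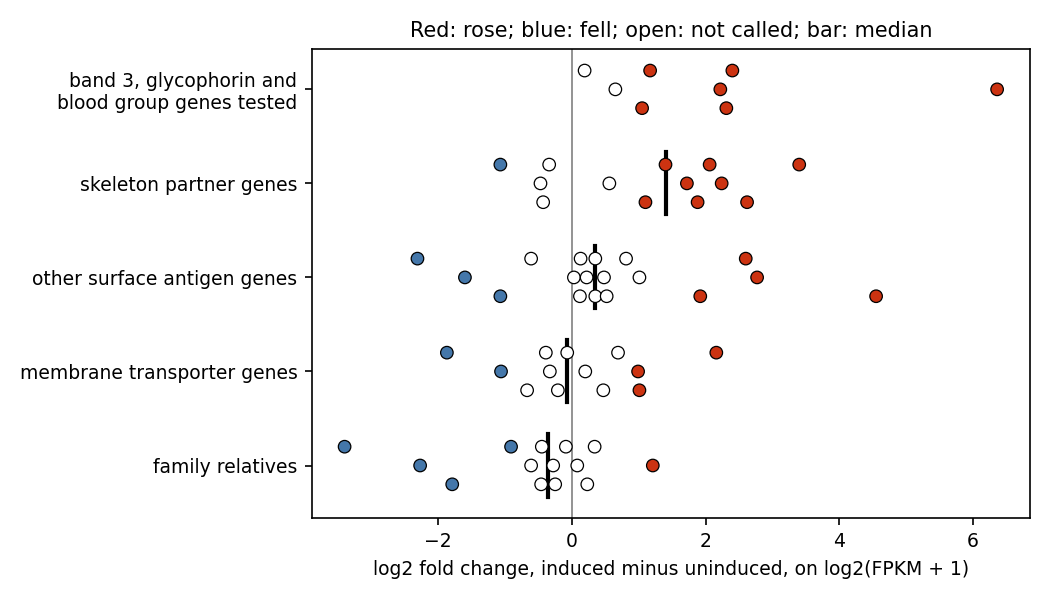
Log2 fold change on log2(FPKM + 1), induced minus uninduced, of the tested band 3, glycophorin and blood group genes and of 4 lists of other genes. The shared locus of Xk is included, while shared loci are left out of the 4 lists. Each point is 1 gene; black bars mark the medians of the lists, which run from 1.40 for skeleton partners to -0.36 for family relatives.

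The list of family relatives of these genes held 36 genes of the SLC4, Rh, XK, aquaporin, ICAM, M13 peptidase and butyrophilin families, of which 21 were under the filter and 1 (Rhbg) shares a locus. Of the 14 tested, 1 rose, 4 fell and 9 were not called, where 11.5% of all loci rose and 14.7% fell. The median log2 fold change of the 14 was -0.36. The 1 that rose was Btn1a1, a butyrophilin, from 0.48 and 0.57 to 1.66 and 3.65 FPKM (1.21 ± 0.32, limma adjusted p = 0.0488); it passed the filter through its induced values and was not called under median-of-ratios scaling. Icam2 fell most, from 22.83 and 16.29 to 0.84 and 1.01 FPKM (-3.40 ± 0.25, adjusted p = 0.00721), while its paralogue Icam4 is the member of that family with the highest level in both groups. Aqp9, Ece2, an endothelin-converting enzyme related to Kell, and Slc4a8 fell as well. Ece2 and Slc4a8 were picked with their values in view, and Slc4a8 passed the filter only through its uninduced values. Slc4a2, the widely expressed anion exchanger related to band 3, measured 15.61 and 17.85 FPKM in uninduced and 15.18 and 16.05 FPKM in induced samples (adjusted p = 0.742). It too was named after its values were seen. Without the same samples in turn, 3, 3, 3 and 4 of the 14 relatives had an estimate above 0. Over all 12890 loci 6770, 6332, 6718 and 6441 did. Each time limma called fewer of the 14, and fewer of all loci, than with all samples. Before induction Slc4a2 was thus the more abundant of the 2 exchangers, and after induction Slc4a1 was.

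The loci whose profile over the 4 samples was most like that of Slc4a1, by Euclidean distance between centred log2(FPKM + 1) values among 8974 candidates, were Hba-a1 (0.51), Apol11b (0.62), Hba-a2 (0.73), Alas2 (1.03) and Cgn (1.37). In each of these 5, as in Slc4a1, induced replicate 2 exceeded induced replicate 1, which the choice by likeness to its profile favored. Nearest to the mean profile of the 8 tested genes were Sptb (0.10), Alad (0.14), Rhbdf1 (0.17), B3gnt3 (0.17) and Ank1 (0.18). Apol11b and B3gnt3, like Slc4a1, passed the filter on low values only through their induced values. Sptb measured 26.62 FPKM in both uninduced samples and 107.03 and 122.48 FPKM in induced ones. A likeness over 4 samples describes these libraries only.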

How the data were processed

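Per the labels' protocols, total RNA of the 2 uninduced and 2 DMSO-induced samples was isolated with Trizol and Ribo-Zero removed its ribosomal RNA. TopHat2 and GRCm38 were used, per the submitters' processing notes. The quantifier, the versions and the annotation release are not given in the sources used here, nor is depth. The authors deposited 1 FPKM value per locus and sample, unpooled. That the unit is FPKM was read from Cufflinks-style headers and from sums of 1055861 to 1325806 per sample, so no count model was used. Since FPKM is relative to each library, very abundant transcripts lower the others.

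Loci were matched by symbol, then by GENCODE M21 transcript for older symbols. Genes sharing a locus were kept out of list counts, while the shared locus of Xk was counted among the tested blood group genes. Positions are from GENCODE M21, promoters from RefSeq. Values were tested as log2(FPKM + 1) in 12890 loci (1 FPKM or more in 2 or more samples), with limma 3.58.1 in R 4.3.3 (eBayes with trend, group as the only term, two-sided) and Benjamini-Hochberg adjustment. SEs are limma's moderated ones. The fit was tested on simulated data. Alternatives were 3 scalings, 2 filters, a pseudocount of 0.1, a replicate block, each sample left out, loci listed at 0 removed and robust estimation. Leaving out a sample with the filter applied again was added after the data were seen. Of each list, the text names the called gene with the largest rise, the one with the largest fall and the most abundant. It also names the 5 loci most like Slc4a1 and the 5 most like the mean of the tested genes, and marks other choices. The results of some genes that this rule names are not reported here. Genes and lists were chosen with earlier results of these data known.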

Additional observations from a re-analysis of the deposited data

How the results depend on the processing

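The log2 fold changes of the 8 tested genes kept their sign in every setting run. Over the 9 settings that keep all samples, Slc4a1 ran from 6.30 to 7.64, Rhd from 2.32 to 2.60, Kel from 2.23 to 2.41, Gypc from 2.14 to 2.40, Xk from 1.10 to 1.26, Rhag from 0.97 to 1.29, Ermap from 0.57 to 0.92 and Icam4 from 0.11 to 0.49. With no filter on low values limma called 30 loci in place of 3377 (6813 at an unadjusted p under 0.05). It then called 0 of the band 3, glycophorin and blood group genes, 0 skeleton partners, 2 other surface antigen genes, 0 membrane transporters and 0 family relatives, against 7, 10, 11, 6 and 5 at an unadjusted p under 0.05. The 5 FPKM filter left 6 family relatives to test and 3 called. Slc4a2, not called in any setting, measured -0.09 and, with sums that leave out globins and the 10 most abundant loci, 0.00. The median of all loci ran from -0.04 to 0.11 over the scalings.

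With 1 sample left out, limma called 14 to 486 loci when the same loci were tested. With the filter applied again it called 2685, 2231, 860 and 187, without uninduced replicates 1 and 2 and induced replicates 1 and 2 in turn. Over both ways it called 0 to 6 of the band 3, glycophorin and blood group genes, 0 to 9 skeleton partners, 0 to 8 surface antigen genes, 0 to 4 transporters and 0 to 3 relatives. In these fits the lone sample is assumed to vary like the other group. On the same loci Slc4a1 passed in 2 of the 4, Gypc, Rhd and Kel in 1 each, and Rhag and Xk in 0. The cause was not tested. The replicate block gave 4238 loci, against 3377 without it, and 6 genes, and changed no call of the 8 genes. Whether equal replicate numbers mark paired samples is not resolved. The differences between replicates 1 and 2 correlated at r = 0.17 between the groups across 12890 loci, with 2 pairs. With 2 samples a group and no counts, the precision of low values such as those of Aqp1 is unknown.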

Other observations

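The nearest protein-coding gene on each side of the 9 genes, taken from GENCODE M21 and chosen by position after the values were seen, gave 18 neighbours. Of these, 1 was matched to no locus, 9 were under the filter and 8 were tested. In limma 0 of the 8 were called, with log2 fold changes from -0.52 to 0.76 and adjusted p-values of 0.105 or more. An unadjusted p under 0.05 was found for 2 of them. Over all 12890 loci, 26.2% were called and 5556 loci had an unadjusted p under 0.05. Tmem50a, a membrane protein gene 1676 bases from Rhd, measured 55.37 and 63.89 FPKM in uninduced and 80.09 and 94.77 FPKM in induced samples (0.54, adjusted p = 0.105). Ubtf, the ribosomal RNA gene transcription factor 29081 bases from Slc4a1, measured 59.78 and 52.75 FPKM in uninduced and 35.35 and 42.49 FPKM in induced samples (-0.52, adjusted p = 0.112). Both sets of values are apart between the groups without passing the test. The same holds for Crisp2, a neighbour of Rhag, and Icam5, which were higher, and for Icam1, which was lower. Crisp2 is listed at 2 loci, of which the one with the higher mean level was used. That locus passed the filter only through its induced values. Over all loci tested, both induced values lay above both uninduced values for 36.1% and below them for 34.7%. Icam1 and Icam5 lie 555 and 1477 bases from Icam4. Icam1 measured 15.87 and 16.44 FPKM in uninduced and 11.83 and 15.13 FPKM in induced samples, and Icam5 measured 2.95 and 3.48 FPKM and 3.80 and 4.04 FPKM.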
